A study of Mus musculus with 30 samples.

Results

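The proteins of the mitochondrial ribosome are encoded by nuclear genes whose mouse symbols begin with Mrps (small subunit) or Mrpl (large subunit). The 78 genes described here were chosen by name alone: their symbols consist of Mrps or Mrpl, a number and at most 1 letter, and each had a mean of at least 50 normalized counts over all 30 libraries. No gene whose symbol matched fell under that minimum. They comprise 29 Mrps and 49 Mrpl genes among 35727 genes in the deposited table. The libraries were RNA sequencing libraries of sorted mouse bone marrow haematopoietic stem cells (HSCs), the cells that renew blood. There were 3 libraries labelled IL1R1 KO (knockout of the type 1 interleukin-1 receptor gene) from mice aged 2 months, 4 from mice aged 1 year and 5 from mice aged 2 years. Mice with a germ-free bowel gave 3 libraries at 2 months and 2 at 1 year, and wild-type (WT) mice gave 4, 5 and 4 at the 3 ages. The labels name neither the knockout allele, the strain nor the surface markers of the sort. They do not say whether replicates came from separate animals, so all p-values measure the spread between libraries, part of which may be technical. By the series title, the comparisons concern interleukin-1 and the microbiome in HSC ageing.

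Mitochondrial ribosomes translate the few proteins that mitochondrial DNA encodes, all of them subunits of the respiratory chain or of the ATP synthase. Their RNA parts come from mitochondrial DNA, whereas every protein part is made in the cytosol and imported, so assembly needs the output of both genomes. Some of the proteins descend from ribosomal proteins of bacteria and others have no counterpart among bacterial ribosomal proteins. Quiescent mouse HSCs are known to rely little on respiration and to raise it when they are activated.

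The genes are scattered over 17 chromosomes, with 11 on chromosome 11, and many of their promoters share short motifs that earlier work tied to nuclear genes for mitochondrial proteins. NRF1, GABP (an ETS family factor) and YY1 are the factors concerned. The searched letters were GCGCNTGCG for NRF1, CGGAAG for the ETS family and AANATGGCG for YY1, on both strands, in windows from 250 bases before to 50 bases after the gene start (RefSeq, GRCm38.p6). A window was given for 69 of the 78 genes. The ETS letters were found in 38 of these 69 windows (55.1%) and in 21.5% of the windows of all protein-coding genes. The NRF1 letters were found in 18 (26.1%, against 8.95%) and the YY1 letters in 11 (15.9%, against 3.30%). At least 1 of the 3 motifs stood in 50 windows (72.5%, against 28.8%). The 150 bases before the start of 5 genes whose levels are described below, chosen after their values were seen, show these motifs in capitals.
Mrpl51: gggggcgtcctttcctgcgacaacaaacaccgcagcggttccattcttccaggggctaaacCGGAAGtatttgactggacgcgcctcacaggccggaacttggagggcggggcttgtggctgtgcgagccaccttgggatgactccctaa
Mrpl3: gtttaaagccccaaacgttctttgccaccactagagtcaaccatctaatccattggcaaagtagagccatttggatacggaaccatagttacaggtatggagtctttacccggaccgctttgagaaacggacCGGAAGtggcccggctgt
Mrpl57: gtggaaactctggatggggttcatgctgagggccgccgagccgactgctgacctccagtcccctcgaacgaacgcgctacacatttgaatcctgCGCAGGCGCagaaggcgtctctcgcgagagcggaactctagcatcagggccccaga
Mrpl36: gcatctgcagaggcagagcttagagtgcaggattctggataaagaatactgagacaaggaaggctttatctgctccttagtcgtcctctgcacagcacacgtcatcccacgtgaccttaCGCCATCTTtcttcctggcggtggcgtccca
Mrps21: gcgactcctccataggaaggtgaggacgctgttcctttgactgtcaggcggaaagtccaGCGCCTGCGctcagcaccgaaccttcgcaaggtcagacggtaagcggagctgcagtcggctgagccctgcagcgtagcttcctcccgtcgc
The Mrpl51 stretch is chr6:125192050-125192199 on the plus strand, the Mrpl3 stretch chr9:105053118-105053267 (plus), the Mrpl57 stretch chr14:57826089-57826238 (plus), the Mrpl36 stretch chr13:73330859-73331008 (plus) and the Mrps21 stretch chr3:95871515-95871664 (minus). The capitals mark the ETS letters in Mrpl51 and Mrpl3, the NRF1 letters in Mrpl57 and Mrps21 and the YY1 letters in Mrpl36. The windows of Mrpl57, Mrpl36 and Mrps21 also held the ETS letters after the gene start, outside the bases shown. Among other genes described below, Mrpl40, Mrpl48 and Mrps25 had windows with none of the 3 motifs. A match is a description of these letters and not evidence that a factor binds there.

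Another shared trait was position. In the GENCODE M21 annotation, 33 of the 78 genes (42.3%) had a protein-coding gene on the opposite strand whose start lay within 1000 bases and which was read in the other direction, against 10.9% of all 21951 protein-coding genes. Among these neighbours were Ncapd2 (a condensin subunit) beside Mrpl51, Ska3 (a kinetochore protein) beside Mrpl57, Mtbp beside Mrpl13 and Ndufs6 (a subunit of respiratory complex I) beside Mrpl36. The GENCODE starts of Mrpl36 (chr13:73328513) and Mrpl51 (chr6:125191801) lie before the stretches shown above, which follow RefSeq. The stretches shown for these genes are therefore not the bases between them and their neighbours. Exon bases were shared with another annotated gene in 26 of the 78 genes, and in 15 of these the share was over 10%. The library chemistry does not mark strand, so reads in bases shared by opposite strands cannot be told apart by strand. For Mrpl13 27% of exon bases were shared in this way with Mtbp, and for Mrps25 58.2% with Nr2c2. Mrpl53 shared 100% of its exon bases with Gm42688, which lies on the same strand.

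All 78 genes were detected in every library, where together they made up 0.367% to 0.453% of the summed normalized counts. Taking the most frequent value above 0 in each library as 1 read gave a depth of 15.6 to 56.3 M reads. Only 9.64% to 18.5% of low values were whole multiples of that value, so this depth is uncertain. The 10 HSC markers (among them Procr, Slamf1, Mecom and Hlf) were above 0 in all 30 libraries. Il1r1 had 186 to 409 normalized counts in libraries labelled IL1R1 KO, 111 to 302 in germ-free libraries and 137 to 383 in WT libraries. It was therefore not lower under the knockout label, and since the deleted part of the gene is not given, a value over the whole gene does not test that label. The title of 1 library, KO-labelled 1 year replicate 1, gave 1 year and its age label 2 months; it was kept at 1 year.

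The levels of the 78 genes differed more between genes than between libraries. Per kb of transcript, mean normalized counts over the 30 libraries ran from 184 for Mrpl1 (a protein of the large subunit's mobile stalk near the exit site) to 3366 for Mrps17, with a median of 1088. Mrps17 was followed by Mrpl42 (3345 per kb), Mrpl52 (3112), Mrpl4 (2893) and Mrpl30 (2839), and the lowest after Mrpl1 were Mrpl47 (235) and Mrps25 (310.4). Median levels per kb were close in genes named for the small subunit (1069) and the large subunit (1106). They were 821 in the 30 genes whose proteins have no counterpart among bacterial ribosomal proteins and 1409 in the 48 whose proteins have one. Transcript length was the median over annotated protein-coding transcripts, so a gene mostly expressed as another isoform is misplaced on this scale.

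**Figure D1:**
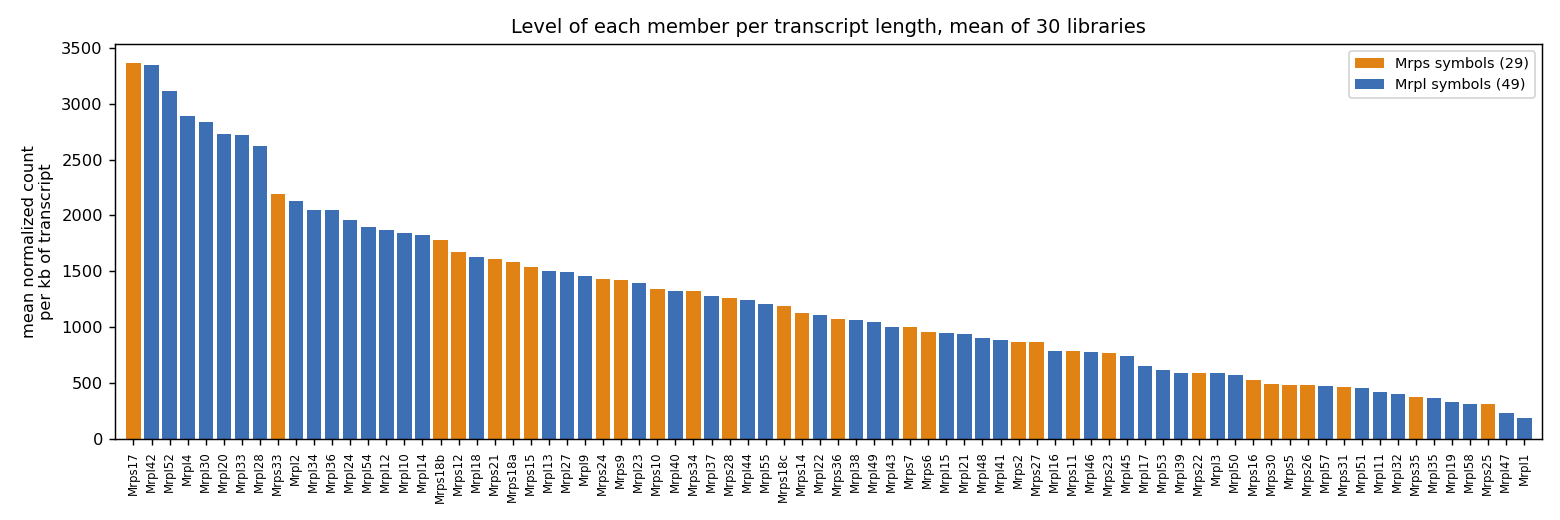
Each bar is the mean normalized count of 1 gene over 30 libraries, divided by the length of its transcript in kb, with Mrps genes in orange and Mrpl genes in blue. The bars fall from 3366 for Mrps17 to 184 for Mrpl1, and Mrps and Mrpl genes both occur over the whole range.

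Most genes varied little. The ratio of the highest to the lowest of the 30 libraries had a median of 1.75, and the smallest was 1.37 for Mrpl30 (1631 to 2235 normalized counts). The largest was 4.03 for Mrpl2, a core protein of the large subunit, which ranged from 966 in germ-free 1 year replicate 2 to 3893 in KO-labelled 2 years replicate 2. Mrpl2 had 1472, 3893, 2074, 1995 and 3174 in the KO-labelled libraries at 2 years. It was not called in any comparison.

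Across the groups, the 2-month libraries stood highest. The mean log2(normalized count + 1) of the 78 genes was 10.53 ± 0.096 (SD, n = 3) at 2 months, 10.37 ± 0.045 (n = 4) at 1 year and 10.35 ± 0.029 (n = 5) at 2 years in KO-labelled libraries. It was 10.49 ± 0.066 (n = 4), 10.35 ± 0.051 (n = 5) and 10.38 ± 0.10 (n = 4) at the same ages in WT libraries. KO-labelled libraries at 1 and 2 years lay at 10.31 to 10.42, all below the 10.44 to 10.64 at 2 months, and WT libraries at 1 year, at 10.27 to 10.40, all lay below the 10.41 to 10.56 at 2 months. WT libraries at 2 years (10.24 to 10.46) overlapped those at 2 months. The 2 germ-free libraries at 1 year lay far apart at 10.53 and 10.25, on either side of the germ-free 2-month libraries (10.45 to 10.51). In bulk libraries a lower value can mean less RNA per cell or fewer cells of a type, and the values cannot tell these apart.

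**Figure D2:**
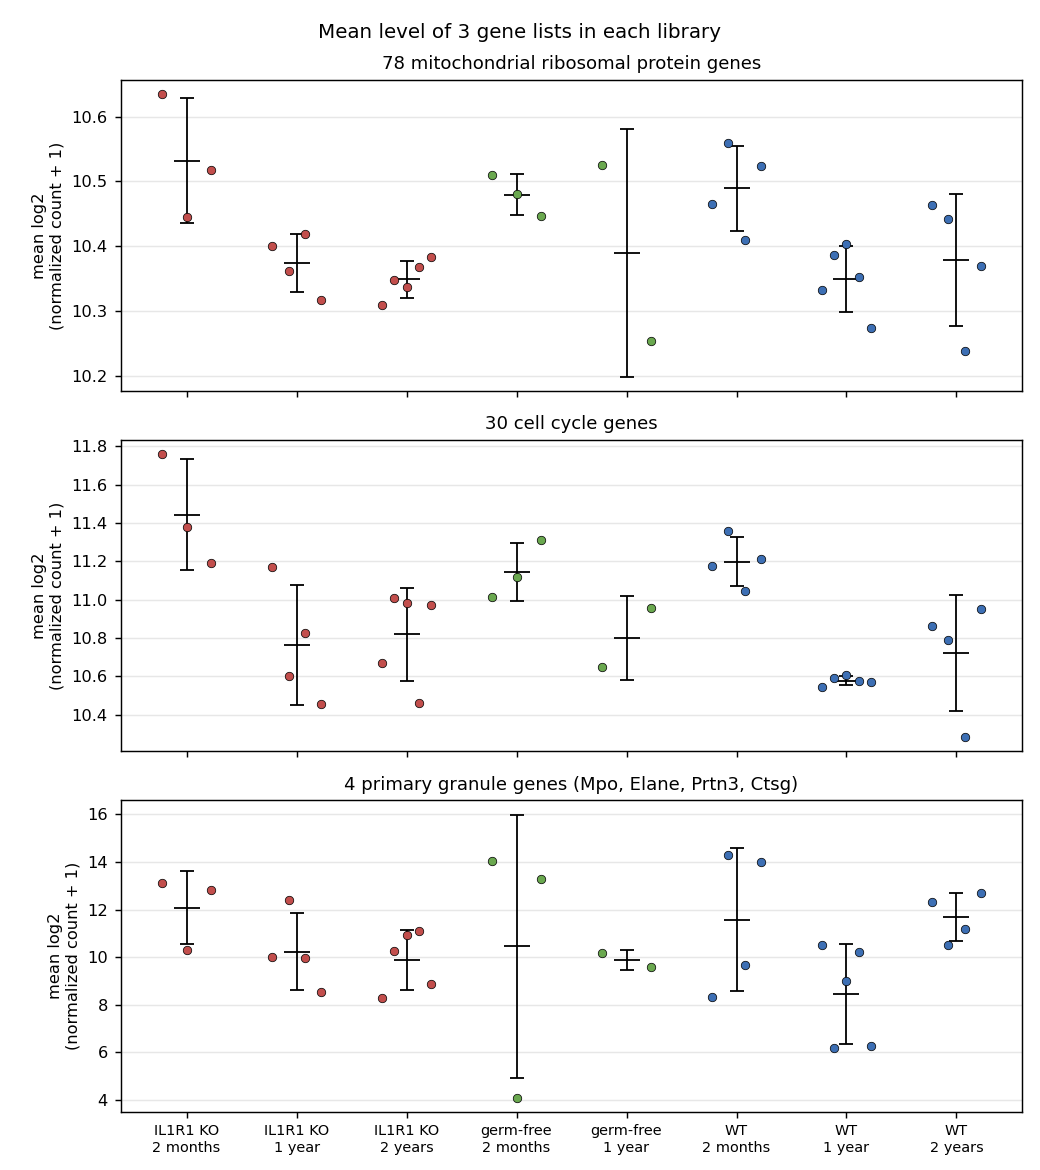
Points are libraries, and lines with bars are group means ± SD (n = 2 to 5), of the mean log2(normalized count + 1) of the 78 genes (top), of 30 cell cycle genes (middle) and of 4 primary granule genes (bottom). The 2-month libraries lie high for the 78 genes and for the cell cycle genes, and the primary granule genes spread from 4.10 to 14.29.

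In WT HSCs, 9 of the 78 genes fell at 1 year relative to 2 months and none rose (limma, adjusted p under 0.05 over 16958 genes). Over all genes tested, 4.61% were called lower and 6.12% higher. The 9 genes were Mrps28, Mrps21 and Mrps33 of the small subunit and Mrpl57, Mrpl33, Mrpl42, Mrpl13, Mrpl51 and Mrpl36 of the large subunit. Of the 78 genes, 60 had a negative log2 difference, the median was -0.14, and the median over all genes was 0.01. With the mean of the cell cycle genes in the model the median was -0.06. The WT groups did not overlap, with 1 year lower, for 12 of the 78 genes, against 5.62% of all genes.

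Mrps28, a small subunit protein related to the bacterial protein S1, was called with the smallest p. It had 780.2, 838, 927, 743 and 716 normalized counts in WT libraries at 1 year, against 1238, 1031, 1208 and 1010.2 at 2 months. Every 1-year library lay below every 2-month library. The log2 difference was -0.49 ± 0.11 (SE, adjusted p = 0.00507), a fall of 28.6%, and the call held in 19 of 19 other settings, each left-out library included. Mrpl57, a large subunit protein with no counterpart in the bacterial ribosome, had 1274, 1339.8, 999.3, 1174 and 912 normalized counts in WT libraries at 1 year, against 1358, 1876, 1642 and 1607 at 2 months. Its groups did not overlap either, and the log2 difference was -0.51 ± 0.13 (SE, adjusted p = 0.0115). Its call held without each of the 9 libraries in turn but 1, WT 2 months replicate 2, which was the highest.

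The other 7 genes fell by 0.29 to 0.62 on the log2 scale. Mrps21, the relative of a small bacterial protein of the small subunit, fell most, with a mean of 579 ± 127 (SD, n = 5) normalized counts at 1 year and 893 ± 207 (SD, n = 4) at 2 months. Its groups overlapped, because WT 1 year replicate 1 had 769 and WT 2 months replicates 2 and 3 had 719.6 and 730.4. Mrpl42 averaged 1997 ± 179 at 1 year and 2478 ± 174 at 2 months, and its groups were apart. Mrpl51, likewise without such a counterpart, lay between 1405 and 1558 at 1 year and between 1707 and 1929.7 at 2 months. Mrpl33 and Mrpl36, both related to small bacterial proteins of the large subunit, averaged 1098 ± 114 and 1366 ± 162 at 1 year and 1458 ± 199 and 1757 ± 148 at 2 months. Mrps33 averaged 1396 ± 227 at 1 year and 1813 ± 151 at 2 months, with overlapping groups. With 1 of the 9 libraries left out in turn, Mrpl33 and Mrpl42 kept their calls in 5 of 9 cases, Mrps21 in 4, Mrps33 in 3, Mrpl13 in 2, Mrpl36 in 1 and Mrpl51 in 0. The count of 9 called genes became 2 without WT 2 months replicate 2, WT 2 months replicate 4 or WT 1 year replicate 5, 4 without WT 1 year replicate 4 and 5 without WT 1 year replicate 2.

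Other gene lists moved with the same contrast. All 30 cell cycle genes were lower on average at 1 year and 14 were called, with a summed level of 67781 to 79459 at 1 year and 101760 to 116438 at 2 months. The 8 neutrophil markers summed to 40.2 to 1761 at 1 year and to 5007 to 35459 at 2 months, 5 of the 8 were called lower, and Ly6g, Mmp8 and Retnlg were each at 0 in 2 of the 5 libraries at 1 year. The 6 erythroid markers summed to 504 to 2404 at 1 year and to 4395 to 6912 at 2 months, with 3 called lower. The 4 primary granule genes Mpo, Elane, Prtn3 and Ctsg summed to 13389 to 16314 at 1 year and to 7291 to 114638 at 2 months. Prtn3 was called higher at 1 year, while the other 3 had negative log2 differences. The median of the 4 was -4.29, none was called lower, and 3 of the 4 had an unadjusted p under 0.05 (limma). The 10 HSC markers went the other way: all were higher on average at 1 year, 6 were called (Slamf1, 0.89 ± 0.11, SE, and Procr, 0.68 ± 0.10, were first by p), and they summed to 115538 to 122285 at 1 year and to 91798 to 95615 at 2 months. Of 3 markers of T and NK cells, Nkg7 was called lower (-1.68 ± 0.30, SE). The 3 monocyte markers summed to 30.5 to 458 at 1 year and to 176 to 15890.3 at 2 months, with none called and all 3 at an unadjusted p under 0.05. The part of these cell types in the 9 calls was not tested. With the mean of the primary granule genes in the model 1 of the 78 genes was called, and with that of the cell cycle genes 3 were called lower and 2 higher. Mrps28 was the gene called in the model with the primary granule genes, and its call also held without the 2-month libraries of high Mpo (over 10000 normalized counts). Without those libraries the other 8 calls, Mrpl57 among them, were lost, and 3 of the 78 genes were called with only the compared groups fitted.

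At 2 years, none of the 78 genes was called in WT relative to 2 months in either direction (limma), and 15 had an unadjusted p under 0.05. With WT 2 months replicate 3 left out, 1 was called. Over all genes tested, 1.63% were called lower and 3.92% higher. The differences still leaned down, with a median of -0.11 and 60 of 78 negative. The median was -0.06 without WT 2 years replicate 3 and -0.05 without the 2-month libraries of high Mpo or with the cell cycle genes in the model. WT groups did not overlap, with 2 years lower, for Mrps18c, Mrpl42, Mrpl13, Mrps15, Mrps28 and Mrpl43, which is 6 of 78 against 3.82% of all genes. Mrps18c had the smallest p. It had 661, 643, 509 and 665 normalized counts at 2 years, against 766, 843, 1135 and 1109 at 2 months, and the log2 difference of -0.62 ± 0.21 (SE) had an adjusted p of 0.0769. The lowest of these values, 509, is that of WT 2 years replicate 3, which stood apart from the other 3 libraries of its group: its neutrophil markers summed to 39023.5, against 359 to 6239, and its mitochondrial genome transcripts to 1039240, against 602901 to 701682.

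Other lists moved with the 2-year contrast in WT as well. All 30 cell cycle genes were lower on average at 2 years and 7 were called, with sums of 61778 to 88432 at 2 years and 101760 to 116438 at 2 months. All 10 HSC markers were higher on average and 4 were called (Procr, Slamf1, Fgd5 and Ly6a), with sums of 98123 to 117504 at 2 years and 91798 to 95615 at 2 months. Of the 4 primary granule genes, Prtn3 was called higher (0.73 ± 0.18, SE) and the other 3 had negative log2 differences, with a median of -0.08 over the 4. Nkg7 was called lower (-1.20 ± 0.31, SE). Neutrophil markers summed to 359 to 39023.5 at 2 years and to 5007 to 35459 at 2 months, with none of 8 called (limma) and 1 at an unadjusted p under 0.05. Their part in the values of the 78 genes was not tested. Between 2 years and 1 year in WT no gene of the 78 was called and none had an unadjusted p under 0.05, where 0.0118% of all genes were called.

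In KO-labelled HSCs, 7 of the 78 genes fell at 2 years relative to 2 months and none rose (limma), where 2.90% of all genes were called lower and 5.12% higher. At 1 year, 3 fell and none rose, where 0.613% of all genes were called lower and 1.39% higher. The medians of the 78 genes were -0.21 and -0.16, with 64 and 68 genes negative, against 0.00 over all genes at either age. Without KO-labelled 2 months replicate 1 these medians were -0.14 and -0.10, without the 2-month libraries of high Mpo -0.12 and -0.08, and with the cell cycle genes in the model -0.13 and -0.10. KO-labelled groups did not overlap, with the older lower, for 24 of the 78 genes at 2 years (7.44% of all genes) and for 15 at 1 year (5.34% of all genes). Mrpl13, Mrpl3 and Mrpl51 were called at both ages, and Mrpl16, Mrpl48, Mrps23 and Mrps22 at 2 years, with adjusted p above 0.05 at 1 year. No gene was called between 2 years and 1 year (0.177% of all genes were), and 4 had an unadjusted p under 0.05 there.

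Mrpl13, a core protein of the large subunit, had the largest fall of the 7 genes. It had 2746, 2077 and 2531 normalized counts in KO-labelled libraries at 2 months, 1720.3, 1845, 1629 and 1829 at 1 year, and 1432, 1599.5, 1383, 1982 and 1770.2 at 2 years. All 9 older libraries lay below the 3 young ones. The log2 difference was -0.59 ± 0.12 (SE, adjusted p = 0.00171) at 2 years and -0.47 ± 0.12 (SE, adjusted p = 0.0406) at 1 year. In WT, where Mrpl13 was also called at 1 year, the difference was -0.34 ± 0.11 (SE, adjusted p = 0.042). The call at 1 year was lost without any 1 of the 7 libraries except KO-labelled 2 months replicate 2. The call at 2 years held in 17 of 18 other settings and was lost (adjusted p = 0.373) without the 2-month libraries of high Mpo, which leaves a single KO-labelled library at that age.

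Mrpl3, which lies near the peptidyl transferase centre where amino acids are joined, stood high in the young KO-labelled libraries. It had 2611, 2193 and 2363 normalized counts in KO-labelled libraries at 2 months, all above the 1668, 1803, 1936 and 1816 of WT libraries at that age. At 2 years it had 1708, 1909.98, 1720.05, 1496 and 1719.8 in KO-labelled libraries, and 4 of these 5 lay within the range of WT libraries of all ages (1626 to 2073). The change with age was -0.48 ± 0.10 (SE, adjusted p = 0.00205) at 2 years and -0.39 ± 0.10 (SE, adjusted p = 0.0417) at 1 year in KO-labelled libraries, and -0.02 and 0.01 in WT. The call at 1 year, like that of Mrpl13, was lost without any library but KO-labelled 2 months replicate 2. Neither the difference of these changes (adjusted p = 0.145 at 2 years, 0.274 at 1 year) nor the difference between the labels at 2 months (0.40, adjusted p = 0.089) passed the threshold.

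Mrpl51 had 2110.2, 1669.8 and 1749.7 normalized counts in KO-labelled libraries at 2 months, 1334, 1361, 1407 and 1252 at 1 year, and 1288, 1531, 1529, 1291 and 1441 at 2 years. Its log2 difference was -0.46 ± 0.11 (SE, adjusted p = 0.0231) at 1 year and -0.38 ± 0.10 (SE, adjusted p = 0.021) at 2 years, and the groups were apart at both ages. Both calls were lost without KO-labelled 2 months replicate 1, the highest library. The call at 1 year was also lost without KO-labelled 1 year replicate 4, and that at 2 years without KO-labelled 2 years replicate 1 or 4. KO-labelled 2 months replicate 1 also had the highest cell cycle sum of all 30 (155297). The remaining called genes at 2 years were Mrpl48 (-0.47 ± 0.13, SE), Mrps22 (-0.45 ± 0.14), Mrpl16 (-0.41 ± 0.11) and Mrps23 (-0.39 ± 0.12). Mrpl16 belongs to the core of the large subunit, and the other 3 have no counterpart in the bacterial ribosome. Mrpl48 lay between 1377 and 1545 in KO-labelled libraries at 2 years and between 1896 and 2084 at 2 months, and its call was lost without KO-labelled 2 months replicate 1 or 3. The call of Mrpl16 was lost without KO-labelled 2 months replicate 3, and those of Mrps22 and Mrps23 held in 2 of the 8 cases with 1 library left out. The count of 7 became 3 without KO-labelled 2 months replicate 1 or 3 and 4 without KO-labelled 2 years replicate 1. At 1 year the count of 3 became 0 without KO-labelled 2 months replicate 1 or KO-labelled 1 year replicate 4, and 1 without KO-labelled 2 months replicate 3 or KO-labelled 1 year replicate 2 or 3.

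The cell cycle list moved in these contrasts too: 13 of its 30 genes were called lower at 2 years and 7 at 1 year in KO-labelled libraries. It summed to 68280.1 to 93647 at 2 years, 66878 to 103223 at 1 year and 99809.6 to 155297 at 2 months. With the mean of the cell cycle genes in the model, 2 of the 78 genes were called at 2 years and none at 1 year. The neutrophil markers overlapped between the ages (3310 to 10017 at 2 years, 1958 to 13238 at 2 months) with none of 8 called and none at an unadjusted p under 0.05, and Mmp8 was at 0 in 1 library at 2 months. The erythroid markers (8237 to 12540.0 at 2 years, 2927 to 27910.5 at 2 months) had none of 6 called and none at an unadjusted p under 0.05. The primary granule genes summed to 13027 to 19974 at 2 years and to 10014 to 48602 at 2 months, and Prtn3 was called higher at 2 years (0.84 ± 0.19, SE). The other 3 primary granule genes had negative log2 differences and none was called lower, with a median of -3.09 over the 4. Of the 10 HSC markers, Procr (0.60 ± 0.11, SE) and Slamf1 (0.47 ± 0.12, SE) were called higher at 2 years, and the list summed to 102715 to 108694 at 2 years and to 93885 to 104907 at 2 months. Of the 4 genes in the list for mast cells and basophils, Gata2 was called higher (0.84 ± 0.18, SE), while the other 3 had negative log2 differences. The median of these 4 was -4.13, none was called lower, and all 4 had an unadjusted p under 0.05 (limma). Nkg7 was called lower (-1.60 ± 0.32, SE), with T and NK cell markers summing to 339 to 432 at 2 years and to 805 to 2183 at 2 months. At 1 year no marker of these cell types was called in KO-labelled libraries (limma), and 3 of the 10 HSC markers had an unadjusted p under 0.05. So did 1 gene in each of the primary granule, neutrophil, monocyte, mast cell and basophil, B cell, and T and NK cell lists. Medians at 1 year were -2.56 for the primary granule list (1 of 4 positive), -2.21 for the neutrophil list (0 of 8 positive) and -3.49 for the monocyte list (1 of 3 positive). The part of these lists in the calls was not tested. Without the 2-month libraries of high Mpo none of the 78 genes was called at either age. Placing the library of conflicting age labels at 2 months left 3 of the 7 calls at 2 years and none of the 3 at 1 year.

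**Figure D3:**
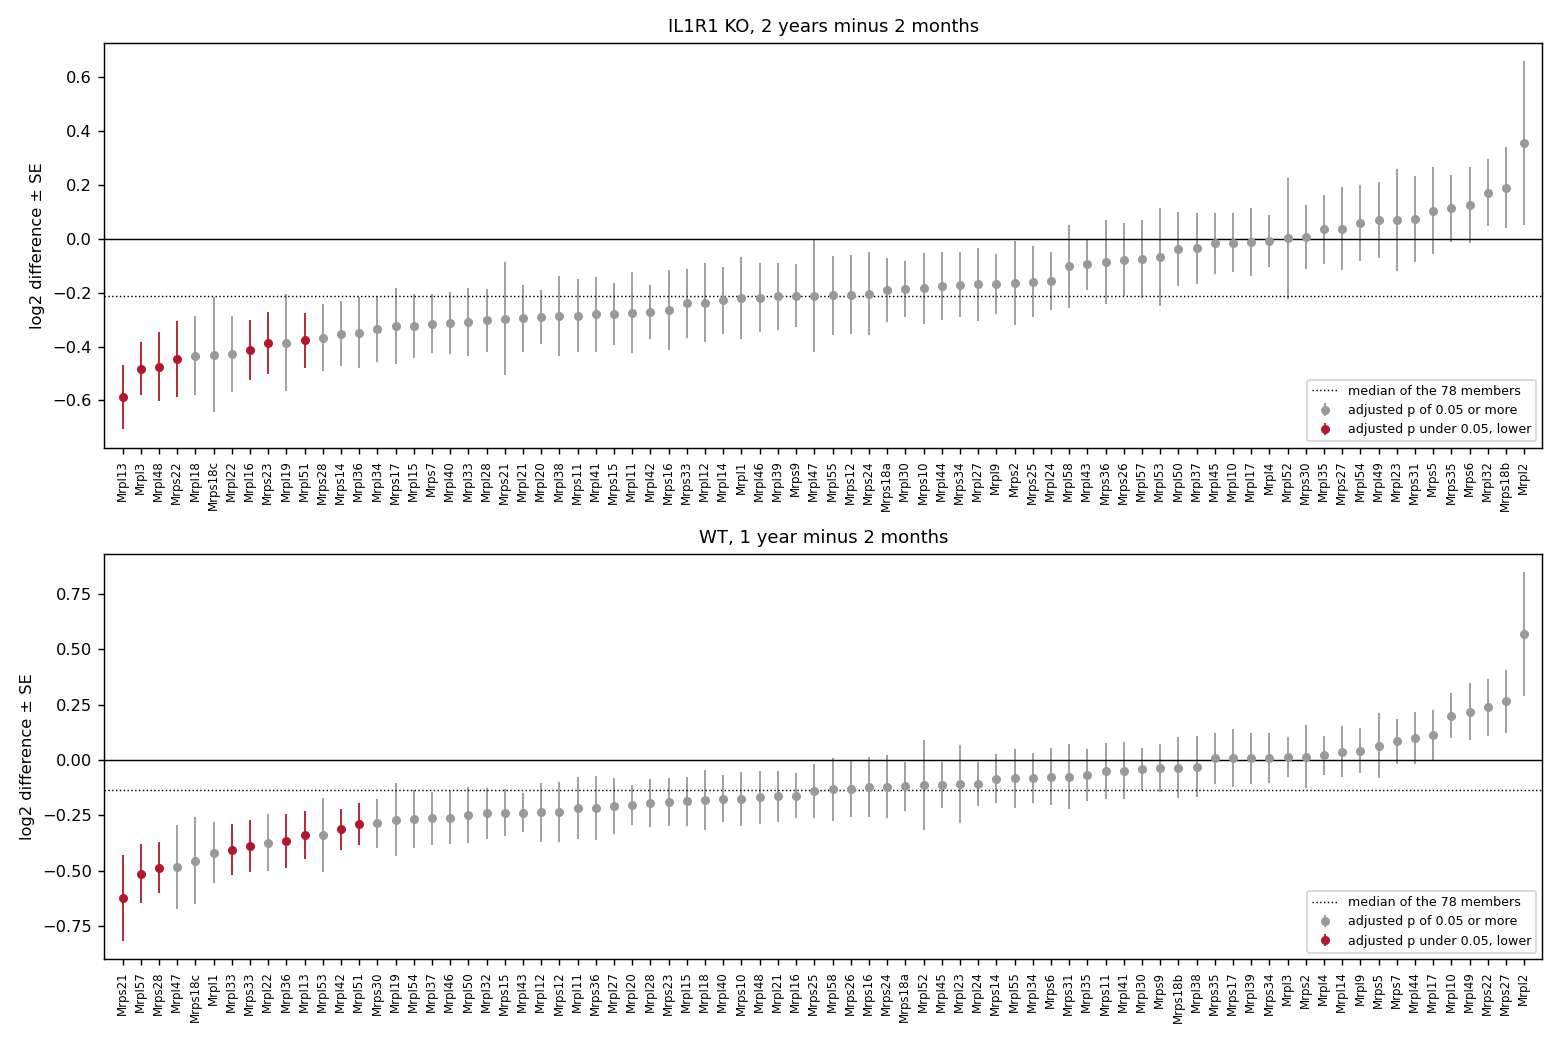
Points are log2 differences of the 78 genes with their SE from limma, in order of size, for KO-labelled libraries at 2 years minus 2 months (top) and WT libraries at 1 year minus 2 months (bottom). Genes called lower are red, the dotted line is the median of the 78 genes (-0.21 and -0.14), and most points lie below 0.

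In germ-free HSCs, 2 of the 78 genes, Mrpl40 and Mrps25, fell at 1 year relative to 2 months and none rose (limma), where 0.814% of all genes were called lower and 1.29% higher. Mrpl40, a large subunit protein without a bacterial counterpart, had 1136 and 1116 normalized counts at 1 year, against 1652, 1684 and 1624 at 2 months. The log2 difference was -0.55 ± 0.14 (SE, adjusted p = 0.0369). Mrps25 had 1420.1 and 1293 at 1 year, against 2149, 2242 and 1913 at 2 months, a difference of -0.63 ± 0.17 (SE, adjusted p = 0.0412). Both genes were lower in every 1-year library, yet each call was lost when any 1 of the 5 libraries was left out, and Mrps25 shares most of its exon bases with Nr2c2.

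The median of the 78 genes in the germ-free contrast was -0.09, with 51 of 78 negative. That median rests on 2 discordant libraries at 1 year: it was -0.22 without replicate 1 and 0.10 without replicate 2. Groups of 2 and 3 libraries did not overlap, with 1 year lower, for 17 of the 78 genes, against 12.6% of all genes. The cell cycle list summed to 65711 to 80462 at 1 year and to 90218 to 109339 at 2 months, with 2 of 30 genes called lower. Of the 10 HSC markers, Slamf1 and Hoxb5 were called higher at 1 year. The primary granule genes summed to 9638 to 14441 at 1 year and to 4899.8 to 90679.5 at 2 months.

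**Figure D4:**
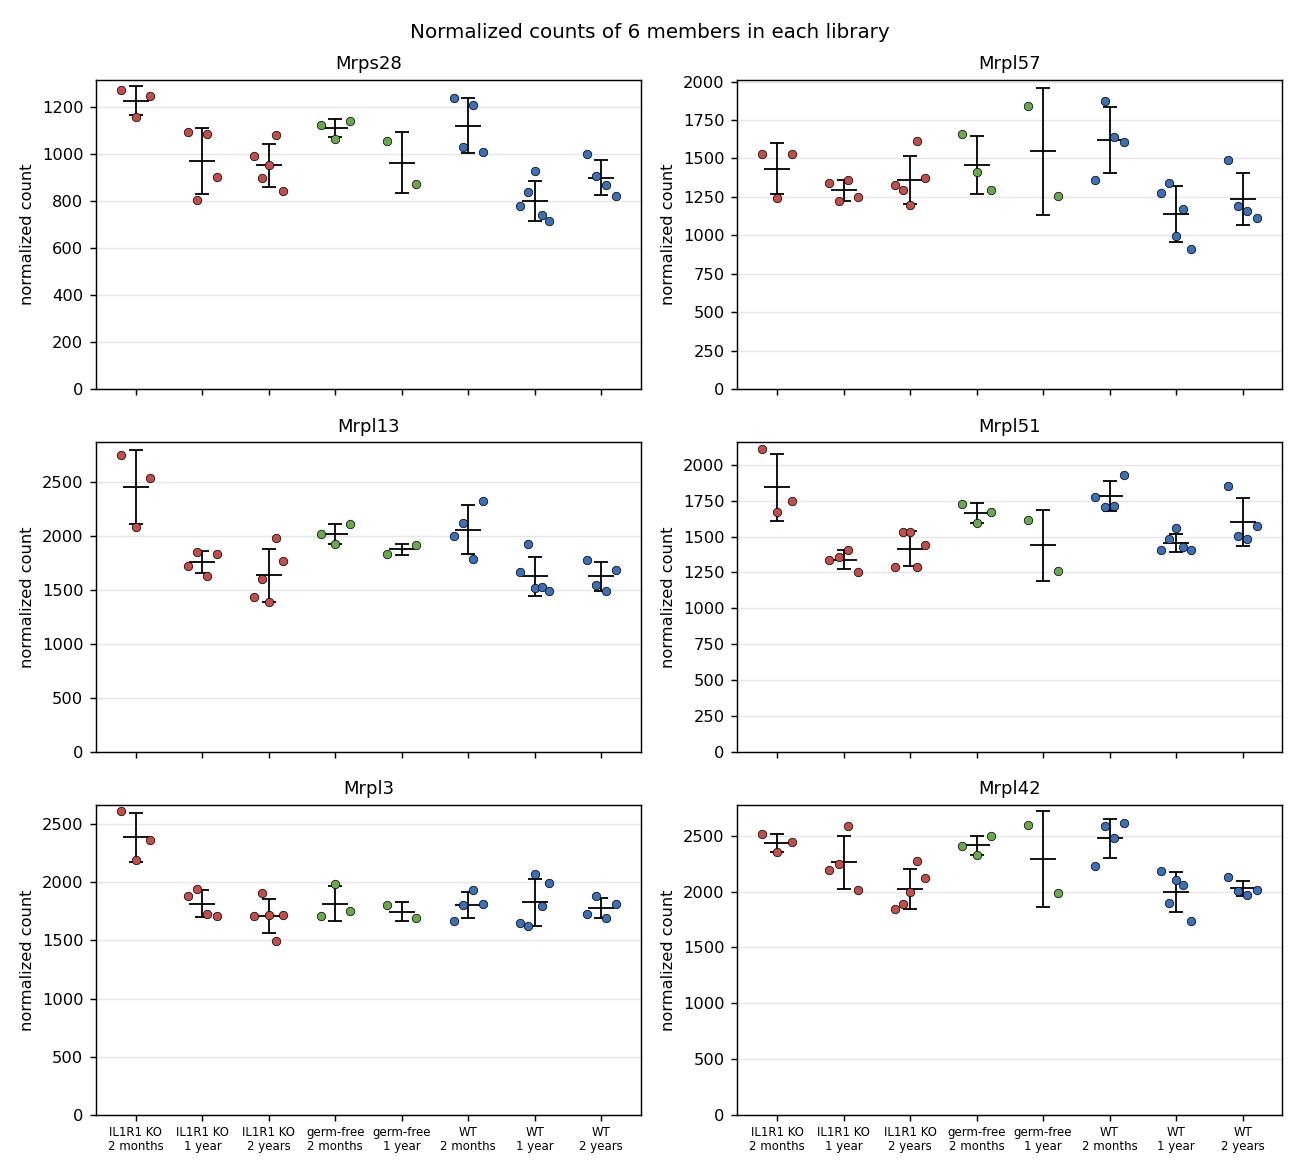
Normalized counts of 6 genes in each library (points) with group means ± SD (n = 2 to 5), ages from 2 months upward within each label. Mrps28 is low in WT at 1 year, where it averaged 801 against 1122 at 2 months, and Mrpl3 is high in the KO-labelled libraries at 2 months, where it averaged 2389.

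Set against WT at the same age, few genes of the 78 stood apart. At 1 year, Mrpl32 and Mrpl1 were higher in germ-free than in WT libraries (limma), and none was lower, where 1.83% of all genes were called higher and 3.13% lower. Mrpl32, whose maturation by a mitochondrial protease is known to be needed for ribosome assembly, had 1650.2 and 1380.1 normalized counts in germ-free libraries, against 1138, 1183, 896, 1083 and 1037 in WT libraries. Mrpl1 had 735 and 828 in germ-free libraries, against 583, 518, 489.8, 490.7 and 528 in WT libraries. The differences were 0.51 ± 0.14 (SE, adjusted p = 0.0377) and 0.58 ± 0.17 (SE, adjusted p = 0.0479), and in both genes the groups did not overlap. Mrpl32 kept its call in 3 of the 7 cases with 1 library left out and Mrpl1 in 1. No gene was called without WT 1 year replicate 3, 4 or 5, 1 was called without WT 1 year replicate 2 or germ-free replicate 1, and 4 were called without germ-free replicate 2. The median of the 78 genes was 0.04, and it was 0.19 without germ-free replicate 2 and -0.10 without germ-free replicate 1. Erythroid markers differed in this contrast (5833 to 13608 in germ-free libraries, 504 to 2404 in WT libraries, 3 of 6 called higher). Neutrophil markers summed to 2561 to 4071 in germ-free libraries and to 40.2 to 1761 in WT libraries, with none of 8 called by limma and 4 at an unadjusted p under 0.05. Of the HSC markers, Slamf1 (-0.57 ± 0.14, SE) and Procr (-0.50 ± 0.13) were among those called lower in germ-free libraries, and the list summed to 90730 to 100908 in germ-free libraries and to 115538 to 122285 in WT libraries. Of the 30 cell cycle genes, Mki67, Birc5 and Cenpe were called higher and Mcm6 lower. Of cytosolic ribosomal protein genes 5 of 84 were called higher (median 0.33), and of nuclear respiratory chain genes 6 of 74 were called higher and 1 lower (median 0.15). Of the 13 mitochondrial genome transcripts, mt-Nd6 was called higher (1.06 ± 0.31, SE). The part of these lists in the result was not tested.

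None of the 78 genes was called in germ-free against WT libraries at 2 months (limma; 6 had an unadjusted p under 0.05, and 0.601% of all genes were called). None was called in KO-labelled against WT libraries at 2 months, 1 year or 2 years, where 2, 4 and 4 had an unadjusted p under 0.05. Of all genes, 0.407%, 1.30% and 1.42% were called in those contrasts. The medians of the 78 genes were 0.05, 0.02 and -0.04. The changes with age themselves did not differ from those of WT for any of the 78 genes by the test of the difference. In KO-labelled libraries 3 genes had an unadjusted p under 0.05 for the change to 1 year (0.0354% of all genes called) and 4 for the change to 2 years (0.395% called). In germ-free libraries 9 did for the change to 1 year (0% called). Comparisons within and between labels share their 2-month and WT libraries and are not independent of each other.

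Members with particular roles were mostly not called. Mrps12, at the decoding centre, where codon and anticodon meet, differed by -0.21 in KO-labelled libraries at 2 years and by -0.23 in WT at 1 year (adjusted p = 0.47 and 0.312). Mrpl12, a stalk protein that also binds the mitochondrial RNA polymerase, differed by -0.24 in both of these contrasts (adjusted p = 0.384 and 0.298). Mrpl11, at the base of the same stalk, differed by -0.27 and -0.22 (adjusted p = 0.315 and 0.365). Mrps7, which contacts the head of the small subunit RNA, differed by -0.31 in KO-labelled libraries at 2 years (adjusted p = 0.0776) and by 0.08 in WT at 1 year. Mrpl45, which anchors the ribosome at the inner membrane, differed by -0.02 and -0.11, and Mrpl44, a protein with a ribonuclease III fold, by -0.17 and 0.10. Mrpl58, which can release stalled peptides, differed by -0.10 and -0.13. None of these 7 genes was called in any of the 15 comparisons.

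Mrps18a, Mrps18b and Mrps18c are paralogues related to the same bacterial protein. Mrps18a, whose protein sits in the large subunit despite its name, differed by -0.19 in KO-labelled libraries at 2 years and by -0.12 in WT at 1 year. Mrps18b differed by 0.19 and -0.03, and Mrps18c by -0.43 and -0.46, none of them past the threshold. Mrps30, also a large subunit protein, differed by 0.01 and -0.29 (adjusted p = 0.0981 in WT). Mrps27, an RNA-binding protein of the small subunit, differed by 0.04 and 0.26. Mrps36, now known as a subunit of the 2-oxoglutarate dehydrogenase complex rather than of the ribosome, differed by -0.09 and -0.22, and its adjusted p was above 0.05 in every comparison.

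By symbol, 2 of 29 Mrps genes and 5 of 49 Mrpl genes fell in KO-labelled libraries at 2 years, with medians of -0.20 and -0.21. In WT at 1 year, 3 of 29 and 6 of 49 fell, with medians of -0.12 and -0.17. By origin, 4 of the 30 genes without a counterpart among bacterial ribosomal proteins and 3 of the 48 with one fell in KO-labelled libraries at 2 years, and 4 and 5 fell in WT at 1 year. Whether the classes differ was not tested.

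Genes that work with the mitochondrial ribosome were mostly not called with age. Of 5 further subunits without an Mrp name, Aurkaip1 fell in WT at 1 year (-0.32 ± 0.10, SE, adjusted p = 0.0436), and none was called in the other age contrasts against 2 months. Of 27 genes for mitochondrial ribosome assembly and rRNA modification, none was called in these 5 contrasts by limma; those with an unadjusted p under 0.05 numbered 2 (1 year) and 3 (2 years) in KO-labelled libraries, 2 in germ-free libraries, and 0 (1 year) and 2 (2 years) in WT. Of 16 translation factors, Mrrf, the recycling factor that splits the 2 subunits, rose in WT at 1 year (0.43 ± 0.13, SE, adjusted p = 0.0365). Mrrf was lower in germ-free than in WT libraries at 1 year (-0.71 ± 0.17, SE, adjusted p = 0.014), as was Rcc1l (-0.69 ± 0.21, SE, adjusted p = 0.0492), an assembly factor. Ngrn, another gene of the assembly list, was lower in KO-labelled than in WT libraries at 1 year (-0.48 ± 0.11, SE, adjusted p = 0.02), where the erythroid markers Car1 and Klf1 were among those called higher. A list of 20 genes for loading mitochondrial tRNAs with amino acids held mostly aminoacyl-tRNA synthetases. Of these 20, Wars2 (0.98 ± 0.23, SE, adjusted p = 0.00558) and Nars2 (0.48 ± 0.14, SE, adjusted p = 0.0265) rose in WT at 1 year.

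Of the 13 protein-coding transcripts of the mitochondrial genome, which mitochondrial ribosomes translate, 12 fell in KO-labelled libraries at 2 years, with a median of -0.91. Their sum was 579614 to 678981 in KO-labelled libraries at 2 years, against 1064790, 843229 and 1918330 at 2 months, so KO-labelled 2 months replicate 3 stood far above the others. In alternatives added after the values were seen, 4 of the 13 were called without that library (median -0.56), none without the 2-month libraries of high Mpo (median -0.36) and 5 with the library of conflicting age labels placed at 2 months. With each of the other KO-labelled libraries of these ages left out in turn, 12 or 13 were called. The largest of these falls was that of mt-Nd1 (-1.42 ± 0.24, SE, adjusted p = 0.000329), which was also the single one called at 1 year (-1.10 ± 0.25, SE, adjusted p = 0.019). That single call became 0 without KO-labelled 2 months replicate 1 or 3 and 4 without replicate 2. In WT none of the 13 was called at 1 year or 2 years (limma; 2 and 3 had an unadjusted p under 0.05), with medians of -0.31 and -0.28, and at 1 year 1 was called without WT 2 months replicate 1, 2 without WT 1 year replicate 1 and 3 with the cell cycle genes in the model. Without the 2-month libraries of high Mpo these medians were 0.01 and 0.05. By the test of the difference (limma), none of the 13 was called for the change to 2 years in KO-labelled against WT libraries. An unadjusted p under 0.05 was found for 8 of them there. At 2 months all 13 were higher on average in KO-labelled than in WT libraries (median 0.47), with none called and 7 at an unadjusted p under 0.05. In germ-free libraries none was called, 1 had an unadjusted p under 0.05 and the median was 0.25.

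Nuclear genes for respiratory chain subunits moved beside the 78 genes in WT. Of 74 tested, 25 fell at 1 year (median -0.25) and 5 at 2 years (median -0.20). In KO-labelled libraries 3 fell at 2 years (median -0.22) and none at 1 year (median -0.15, 10 with an unadjusted p under 0.05). In germ-free libraries none was called (median -0.10, 2 with an unadjusted p under 0.05). Cytosolic ribosomal protein genes, which build the ribosomes outside mitochondria, gave 14 calls of 84 in WT at 1 year, all lower (median -0.22), and none in KO-labelled libraries at 2 years (median -0.02, 2 with an unadjusted p under 0.05). The 25 respiratory chain calls in WT at 1 year became 16 without WT 2 months replicate 2, 14 without WT 2 months replicate 4 and 3 without the 2-month libraries of high Mpo. The 14 cytosolic ribosomal protein calls became 5 to 8 without WT 2 months replicate 1, 2 or 4 or WT 1 year replicate 3, 4 or 5, 22 without WT 1 year replicate 2, 1 without the libraries of high Mpo and 45 lower with 1 higher with the cell cycle genes in the model. The 5 respiratory chain calls in WT at 2 years became 0 to 3 without WT 2 months replicate 1, 2 or 4 or WT 2 years replicate 3 or 4, and 9 without WT 2 months replicate 3. The 3 in KO-labelled libraries at 2 years became 1 without KO-labelled 2 months replicate 1 or 3, 6 without replicate 2 and 5 without KO-labelled 2 years replicate 4. Without the 2-month libraries of high Mpo both of these counts were 0. Whether the lists differ from each other was not tested. Among regulators of mitochondrial genes, Myc rose in KO-labelled libraries at 2 years (0.94 ± 0.14, SE, adjusted p = 5.7e-05) and at 1 year (0.56 ± 0.15, SE, adjusted p = 0.0427). Its change to 2 years differed from that of WT by the test of the difference (0.92 ± 0.20, SE, adjusted p = 0.0335). Mycn rose in WT at 1 year (0.72 ± 0.17, SE, adjusted p = 0.00555) and at 2 years (0.62 ± 0.18, SE, adjusted p = 0.0383), and in KO-labelled libraries at 2 years (0.64 ± 0.19, SE, adjusted p = 0.0299). At 1 year Mycn was lower in germ-free than in WT libraries (-0.89 ± 0.21, SE, adjusted p = 0.0143). Tfam, which packages mitochondrial DNA and starts its transcription, fell in WT at 2 years (-0.51 ± 0.13, SE, adjusted p = 0.0189).

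**Figure D5:**
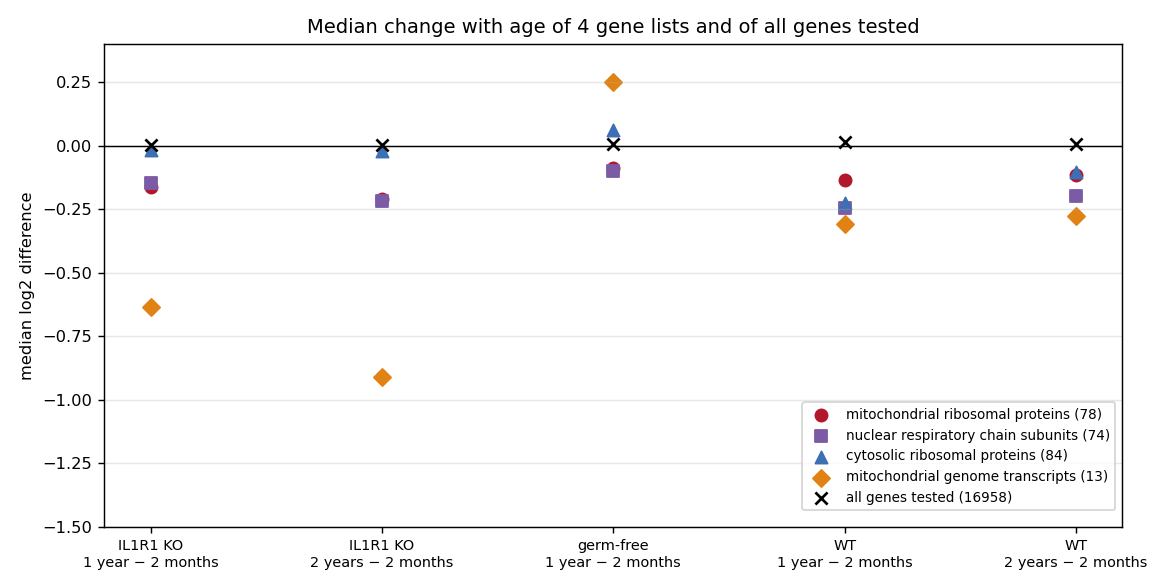
Median log2 differences with age of 4 gene lists and of all genes tested, for KO-labelled, germ-free and WT libraries against 2 months of the same label. The medians of the 78 mitochondrial ribosomal protein genes (circles) lie between -0.21 and -0.09, and mitochondrial genome transcripts (diamonds) reach -0.91 in KO-labelled libraries at 2 years.

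The neighbours that start next to members gave a further view of these loci. Of 32 neighbours tested (limma), 1 was called lower in KO-labelled libraries at 2 years and 1 at 1 year. None was called in germ-free libraries or in WT at 2 years. In WT at 1 year, 2 were called lower and 2 higher, and the higher 2 are not named here. Both KO-labelled calls were Eme1, a subunit of a DNA repair nuclease beside Mrpl27, which also fell in WT at 1 year (-0.999 ± 0.237, SE, adjusted p = 0.00559), whereas Mrpl27 itself differed by -0.21 there (adjusted p = 0.335). Mrpl36 and its neighbour Ndufs6 were both called in WT at 1 year, with log2 differences of -0.37 and -0.40 (adjusted p = 0.049 and 0.0299). Mrpl51 and Ncapd2 differed by -0.38 and -0.42 in KO-labelled libraries at 2 years, with Ncapd2 not past the threshold (adjusted p = 0.102). Mrpl13 and Mtbp differed by -0.59 and -0.69, with Mtbp not past it (adjusted p = 0.166). Of the exon bases of Mrpl13, 27% are shared with Mtbp, so the values of these 2 genes are not fully separate.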

How the data were processed

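The authors deposited 1 table of normalized counts per gene (a signal that is not whole), with similar sums in all libraries. Salmon 1.2.0.0 and DESeq2 1.26.0, cutadapt 2.10, FastQC 0.11.9 and the build GRCm38 (mm10) are named in the submitters' processing notes. Per the labels' protocols, RNA of 4000 to 5000 sorted cells was copied by Smart-seq2 and read from 1 end. Of low values, 9.64% to 18.5% per library were whole multiples of 1 read (tolerance 0.001), so reads were not recovered and no count model was used.

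Groups followed the titles. Genes with at least 10 in at least 3 libraries entered limma 3.58.1 (R 4.3.3) as log2(value + 1), 1 mean per group over all 30 libraries, with trend and robust settings, two-sided tests and Benjamini-Hochberg adjustment over 16958 genes; this understates changes of low genes. The test was checked on simulated data. Positions and transcript lengths came from GENCODE M21, and pandas 2.3.3, matplotlib 3.10.9 and numpy 2.4.6 under Python 3.11.15 made tables and plots. No 2 libraries were identical (highest correlation across genes 0.968).

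The 78 genes and all lists were chosen with earlier results of these data known, and the lists of cytosolic ribosomal proteins and respiratory chain subunits and the class of Mrps28 and Mrpl55 were set after the files were read. Named genes were up to 4 called members per comparison and direction by p, the 5 highest and 3 lowest per kb and 14 of particular role; further names were added after their values were seen. From other lists, up to 3 called genes per list and comparison could be named. Alternatives changed the pseudocount (10), the filter, the scaling, the samples fitted, the replicate block, 2 covariates and single libraries. Their effect on 3 other mitochondrial and ribosomal lists was added after the values were seen. Some genes of the marker lists are not reported here by name.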

Additional observations from a re-analysis of the deposited data

Results flagged for a closer look

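In 6 of 185 groups tested, over the named genes, 1 library stood apart from the rest of its group. Chance gives about 1 in 20. KO-labelled libraries at 2 months and germ-free libraries at both ages were too few for this rule and were not tested. Mrps18c in WT 2 years replicate 3 had 508.8 normalized counts, against 643 to 665 in the other 3 libraries. Mrps18a in the same library had 947, against 1183 to 1223 in the others. This library also had the lowest mean of the 78 genes (10.24 on the log2 scale) and the lowest cell cycle sum (61778) of all 30, and its neutrophil markers summed to 39024. Mrps18a in WT 2 months replicate 4 had 1422, against 1210.5 to 1221.5 in the others. Mrps27 in WT 2 months replicate 2 had 1272, against 1411 to 1429.9. Mrps23 in WT 2 years replicate 2 had 1131, against 925 to 959. Mrpl32 in KO-labelled 2 years replicate 4 had 1366, against 1154 to 1203.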

How the results depend on the processing

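Each count of called genes among the 78 was recomputed under the alternatives. No called gene turned its direction in the comparison where it was called. The direction of genes that were not called was not followed. For KO-labelled libraries at 2 years (7 calls) the count was 3 with only the compared groups fitted, 4 with the replicate block, 3 with the library of conflicting age labels placed at 2 months, 0 without the 2-month libraries of high Mpo (over 10000), 2 with the cell cycle covariate and 3 to 7 with single libraries left out. For KO-labelled libraries at 1 year (3 calls) it was 1 without the filter, 0 with only the compared groups, 0 with that library at 2 months, 0 without high Mpo, 1 with the myeloid covariate, 0 with the cell cycle covariate and 0 to 3 with single libraries left out. For germ-free at 1 year (2 calls) it was 1 without the filter, 0 with only the compared groups, 1 with the block, 1 with that library moved, 1 without high Mpo, 0 with the cell cycle covariate and 0 to 1 with libraries left out. For WT at 1 year (9 calls) it was 5 without the filter, 3 with only the compared groups, 3 with the block, 1 without high Mpo, 1 with the myeloid covariate, 5 with the cell cycle covariate and 2 to 8 with libraries left out. For WT at 2 years (0 calls) it was 0 to 1 with libraries left out. For germ-free against WT at 1 year (2 calls) it was 1 without the filter, 0 with only the compared groups, 1 with the block, 1 with the myeloid covariate, 4 with the cell cycle covariate and 0 to 4 with libraries left out, and at 2 months (0 calls) 1 without high Mpo. The cause of these shifts was not tested, beyond the smaller number of libraries where some were left out. Of the 2-month libraries 6 had high Mpo, so leaving them out leaves 1 or 2 libraries per group at that age, and a lone library is assumed to vary like the rest. Replicate numbers did not pair the libraries: same-numbered libraries had a mean correlation of deviations of 0.0094 (88 pairs, -0.11 to 0.16), other pairs -0.0027. Depth could not be set per value, since reads were not recovered.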
